A study of Mus musculus with 6 samples.

Results

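The 10 genes described here govern the breakdown of heme and the storage, uptake and export of iron: Hmox1, Hmox2, Blvra, Blvrb, Bach1, Fth1, Ftl1, Tfrc, Slc40a1 and Slc11a2. They were taken by symbol from a deposited table of 27179 mouse gene IDs, and all 10 had a row. RNA was measured in cultures of satellite cells, from which skeletal muscle regenerates, isolated from hindlimbs of wild-type C57BL/6 mice and labelled as ageing with no age given. The cells grew in a serum medium with the growth factor bFGF and received either recombinant human MG53 protein (rhMG53) or the vehicle control bovine serum albumin (BSA) for 72 h, labelled day 3. MG53 (TRIM72) is a muscle protein known for sealing injured cell membranes. Each group held 3 libraries, and the labels tie none of them to a particular animal or culture, so errors and p-values measure only how these libraries vary, which may be technical variation. The genes were chosen with the difference between rhMG53 and BSA in these same libraries in view. Their group differences are therefore a description, with errors, and no test is read as support for them.

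Heme oxygenases open the heme ring and release iron, carbon monoxide and biliverdin, which biliverdin reductases turn into bilirubin. Hmox1 is the form induced by stress and Hmox2 the constitutive form, and BACH1 is a repressor of Hmox1 that leaves DNA when it binds heme. Freed iron is stored in ferritin, a shell of heavy (Fth1) and light (Ftl1) chains, or leaves the cell through ferroportin (Slc40a1). Iron enters with transferrin through the transferrin receptor (Tfrc) and crosses the endosomal membrane through DMT1 (Slc11a2). Iron regulatory proteins bind hairpins called iron-responsive elements in these messages when iron is scarce. Such binding blocks translation where the hairpin lies before the coding sequence and stabilises the message where it lies after it.

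The hairpins in the messages of 4 of the 10 genes are shown because they place the iron-responsive elements at the 5′ or the 3′ end of each transcript. Transcripts of GENCODE release M21 (GRCm38, the assembly of mm10) were searched for a bulged C, 5 bases and the loop CAGTGN, with a last loop base other than G. All 5 bases before the loop had to pair with those after it, G with T included, and at least 4 of the next 6. Capitals mark the bulged C and the loop of 6 bases, and T stands for U.
Fth1: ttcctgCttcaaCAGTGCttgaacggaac
Ftl1: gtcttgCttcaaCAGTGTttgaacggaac
Slc40a1: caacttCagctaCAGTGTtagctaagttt
Tfrc a: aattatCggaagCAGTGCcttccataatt
Tfrc b: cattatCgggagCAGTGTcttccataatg
Tfrc c: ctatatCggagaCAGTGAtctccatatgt
Tfrc d: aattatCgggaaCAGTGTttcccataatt
The first 3 lie in 5′ untranslated regions, in Fth1 at chr19:9982732-9982760 on the plus strand, in Ftl1 at chr7:45459779-45459807 on the minus strand and in Slc40a1 at chr1:45925465-45925493 on the minus strand. Those of Tfrc lie in its 3′ untranslated region on the plus strand, at chr16:32631219-32631247, chr16:32631598-32631626, chr16:32631663-32631691 and chr16:32631710-32631738. Of 22527 genes with a coding transcript, 36 (0.16%) held such a match anywhere in a coding transcript, and no transcript of the other 6 genes did. The pattern is strict and misses elements with an imperfect stem, such as the one known in the 3′ untranslated region of Slc11a2. A match is a description of sequence, and the counts do not measure binding or translation.

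Total gene counts were 17374151 to 22738745 per library. Single-gene values are read counts scaled to library size by TMM (CPM), and all 10 genes passed the filter on low counts, with 92 to 24141 counts per library. Muscle lineage markers were all present, summing to 35095 to 43116 CPM, with the satellite cell factor Pax7 at 7.47 to 11.2 CPM and the embryonic myosin gene Myh3 of differentiating muscle at 17676 to 22774 CPM. Erythroid markers were under 1 CPM for all 9 with a row, and Hbb-bs and Gata1 had no count. Macrophage markers averaged under 1 CPM over the 6 libraries for 10 of 13, with C1qb at 0. They summed to 9.09 to 10.95 CPM with BSA and 9.04 to 13.5 CPM with rhMG53, the highest in rhMG53 replicate 2. Lyz2 was at 3.97 CPM in that library and at 0.56 to 0.86 CPM in the others. Fibro-adipogenic markers summed to 456 to 528 CPM with BSA and 477 to 528 CPM with rhMG53, and endothelial markers to at most 2.03 CPM. Most of the fibro-adipogenic sum was the collagen gene Col3a1 (mean 434 CPM), while Lum and Pi16 were under 1 CPM. In bulk RNA, fewer cells of a type and less RNA per cell cannot be told apart. Long transcripts were low in rhMG53 replicate 2 and BSA replicate 3: genes with transcripts over 8000 nt had median log2 deviations from their mean over libraries of -0.25 and -0.15, while those under 2000 nt had 0.10 and 0.02.

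Hmox1 and the genes Fth1, Ftl1, Tfrc and Slc40a1 had no BSA library as high as their lowest rhMG53 library, and the same held for Blvrb. Hmox1 differed by 1.41-fold and the other 5 by 1.11- to 1.201-fold. For these 5 the adjusted p in edgeR was 0.940 to 0.978, so none of them passed over all genes, as with the pathway genes below. Groups overlapped for Hmox2, Blvra, Bach1 and Slc11a2. Among all 13769 genes kept, 5.95% had every rhMG53 library above every BSA library, a share printed here only as background, since the genes were chosen on this contrast.

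**Figure D1:**
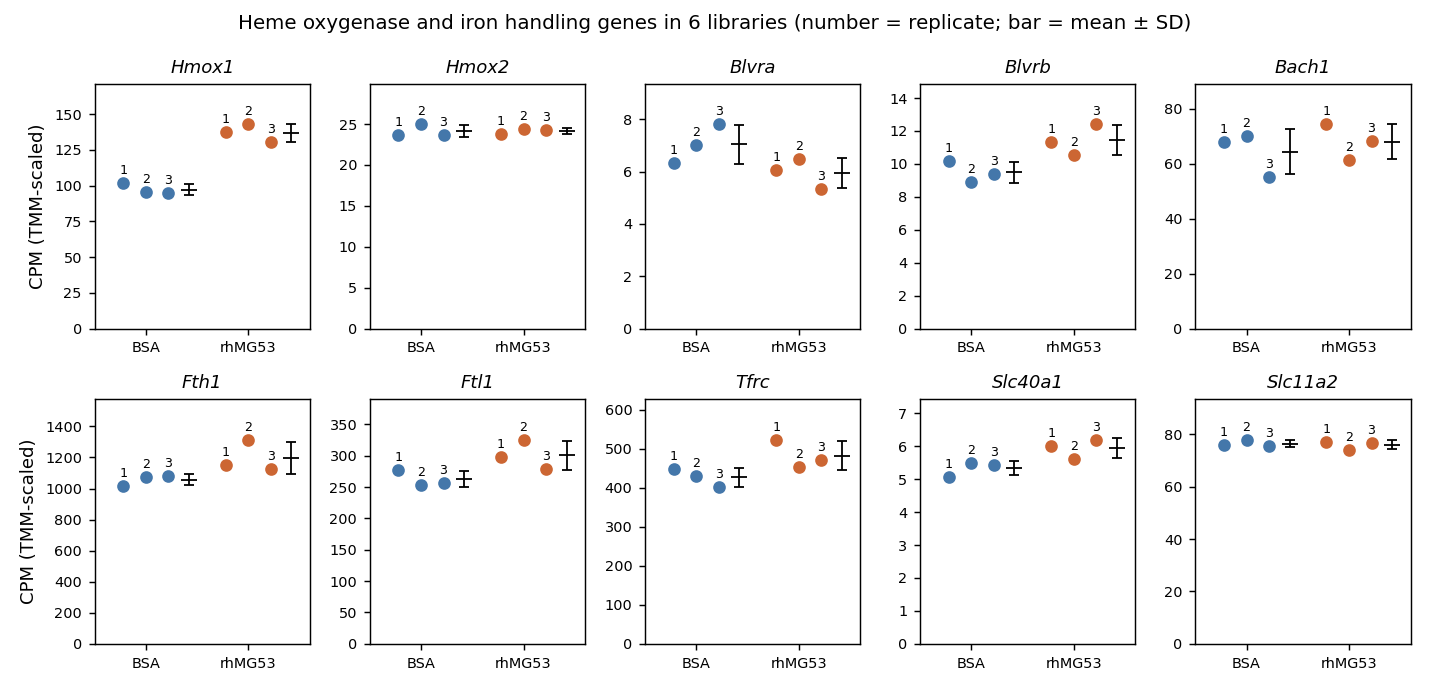
TMM-scaled CPM of each of the 10 genes in the 3 BSA (blue) and 3 rhMG53 (orange) libraries, numbered by replicate, with the mean ± SD as a black bar; all axes start at 0. Hmox1 lies at 94.7 to 102 CPM with BSA and at 130.4 to 143 CPM with rhMG53, while the groups overlap for Hmox2 and Slc11a2.

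Of the heme oxygenase genes, only the inducible one stood apart between the groups. Hmox1 (gene ID 15368, chromosome 8, 75093618 to 75100593) was at 102, 95.4 and 94.7 CPM in BSA replicates 1 to 3 and at 137, 143 and 130.4 CPM in rhMG53 replicates 1 to 3. The highest BSA library lay well under the lowest rhMG53 library. The log2 fold change was 0.49 (SE 0.061, 95% interval 0.36 to 0.63). It was 0.46 without rhMG53 replicate 2. The macrophage marker sum was highest in that library, mainly through Lyz2. Itgam (4.36 CPM) and Mrc1 (1.74 CPM) lay there within the range of the other libraries. Whether macrophages bear on Hmox1 was not tested. Hmox2 (gene ID 15369, chromosome 16, 4726361 to 4766742) was at 23.7, 24.95 and 23.7 CPM with BSA and at 23.8, 24.4 and 24.3 CPM with rhMG53. Those ranges lie on top of each other, with a log2 fold change of 0.0028 (SE 0.069, interval -0.15 to 0.16) whose sign turned with other scaling factors. Hmox2 shares 892 nt of annotated exon with Cdip1 on the other strand, a gene with 1405 to 1984 counts per library, and the strand setting of the counting is not given in the sources used here. Per kb of transcript, Hmox1 stood 4.73, 4.21 and 4.41 times as high as Hmox2 with BSA and 6.37, 6.44 and 5.93 times as high with rhMG53. The mean ratio was thus 4.45 ± 0.26 with BSA and 6.24 ± 0.28 with rhMG53 (SD, n = 3 each).

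Both biliverdin reductase genes were expressed at low levels and had opposite signs. Blvrb (gene ID 233016, chromosome 7, 27447978 to 27465981), whose product also reduces flavins, was at 10.2, 8.92 and 9.40 CPM with BSA and at 11.4, 10.6 and 12.4 CPM with rhMG53. The gap between the highest BSA and the lowest rhMG53 library was small, and the log2 fold change was 0.26 (SE 0.106, interval 0.03 to 0.50). Blvra (gene ID 109778, chromosome 2, 127070629 to 127097084), the enzyme that makes the adult form of bilirubin, was at 6.32, 7.001 and 7.80 CPM with BSA and at 6.05, 6.48 and 5.33 CPM with rhMG53. The groups overlapped, since rhMG53 replicate 2 stood above BSA replicate 1, and the log2 fold change was -0.23 (SE 0.135, interval -0.53 to 0.06), or -0.16 without BSA replicate 3. The ratio of Blvrb to Blvra CPM was 1.61, 1.27 and 1.204 with BSA and 1.88, 1.63 and 2.33 with rhMG53, from 92 to 230 counts per gene and library. The lowest rhMG53 ratio exceeded the highest BSA ratio by little.

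Bach1, the gene of the repressor, overlapped between the groups. It lies on chromosome 16 from 87698954 to 87733346 (gene ID 12013) and was at 68.1, 70.1 and 55.2 CPM with BSA and at 74.3, 61.5 and 68.4 CPM with rhMG53. BSA replicate 3 and rhMG53 replicate 2 were the lowest of their groups. The transcript of Bach1 is 5867 nt long. In those libraries genes of 2000 to 8000 nt had median log2 deviations of -0.01 and -0.02, and longer ones -0.15 and -0.25. What lowered Bach1 there was not tested. The log2 fold change was 0.08 (SE 0.098, interval -0.14 to 0.29). It ranged from -0.02 (without BSA replicate 3) to 0.15 (without rhMG53 replicate 2) when 1 library was left out. It was 0.11 (SE 0.067) when a trend with transcript length was removed. Transcript counts do not measure how much BACH1 protein is bound to DNA.

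Sequence around the transcription starts was searched for the core of the antioxidant response element, at which BACH1 and its opponent NRF2 bind with small MAF partners. RefSeq windows of GRCm38.p6, from 250 bases before to 50 after a start, were found for 7 of the 10 genes, 12 windows in all; Hmox1, Slc40a1 and Slc11a2 had none. The letters TGACNNNGC, on either strand, occurred in 1 of the 12, where 12.39% of all 32851 windows held them. The match is shown in capitals, with the core on the opposite strand and its first printed base 49 bases before the annotated start that the window of Blvra was built on, at chr2:127070598-127070626 with flanks.
Blvra: cacgggaattGCTCGGTCAaggctccgcc
That gene was the member with the lowest fold change. Enhancers outside these windows were not searched.

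Ferritin chain messages had the highest levels of the 10 genes per kb of transcript and were higher with rhMG53 by similar amounts. By CPM Fth1 was highest as well, while Ftl1 (mean 281) fell behind Tfrc (mean 454). Fth1 (gene ID 14319, chromosome 19, 9980600 to 9985111) was at 1018, 1073 and 1080 CPM with BSA and at 1152, 1315 and 1126 CPM with rhMG53. The groups did not overlap, with rhMG53 replicate 2 above all others and the other rhMG53 libraries just above the BSA range. Ftl1 (gene ID 14325, chromosome 7, 45457944 to 45459886) was at 277, 254 and 256 CPM with BSA and at 297, 325 and 278 CPM with rhMG53. Its highest BSA library and lowest rhMG53 library were almost level, and rhMG53 replicate 2 again stood highest. On the log2 scale Fth1 differed by 0.18 (SE 0.074, interval 0.02 to 0.34) and Ftl1 by 0.20 (SE 0.070, interval 0.04 to 0.35). Both transcripts are short, 929 and 968 nt, and short transcripts were high in rhMG53 replicate 2. Without that library the log2 fold changes were 0.11 and 0.13, and with the length trend removed they were 0.13 and 0.15. Whether transcript length bears on the ferritin differences was not tested. The ratio of Fth1 to Ftl1 CPM was 4.04 ± 0.31 with BSA and 3.99 ± 0.10 with rhMG53 (SD, n = 3 each), a difference smaller than the spread. Of the copies of these genes in the table, the pseudogene Ftl1-ps2 had 3 counts over the 6 libraries and the Fthl17 genes at most 1 each; ferritin pseudogenes that are not in the table can still share reads.

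Of the uptake genes, the receptor was higher in the rhMG53 libraries by a small margin, and the groups overlapped for the transporter. Tfrc (gene ID 22042, chromosome 16, 32608896 to 32632794), the gene with the hairpins in its 3′ untranslated region, was at 448, 429 and 401 CPM with BSA and at 523, 452 and 471 CPM with rhMG53. The top BSA library and the bottom rhMG53 library nearly met. The log2 fold change was 0.18 (SE 0.072, interval 0.02 to 0.34), and it was 0.12 without rhMG53 replicate 1, the highest library, and 0.20 with the length trend removed. Slc11a2 (gene ID 18174, chromosome 15, 100387898 to 100424209) was at 75.9, 77.9 and 75.3 CPM with BSA and at 77.2, 73.9 and 76.8 CPM with rhMG53. No library stood apart, and the log2 fold change was -0.01 (SE 0.057, interval -0.13 to 0.12), and turned positive when values were scaled by library size only.

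The exporter gene was the lowest of the set per kb of transcript. Slc40a1 (gene ID 53945, chromosome 1, 45908070 to 45926532) was at 5.08, 5.48 and 5.44 CPM with BSA and at 6.00, 5.61 and 6.20 CPM with rhMG53, from 97 to 119 counts per library. The groups did not overlap but came within the counting error of such numbers. The log2 fold change was 0.16 (SE 0.123, interval -0.11 to 0.43). As for the other genes of the set, the interval is a description and no test.

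**Figure D2:**
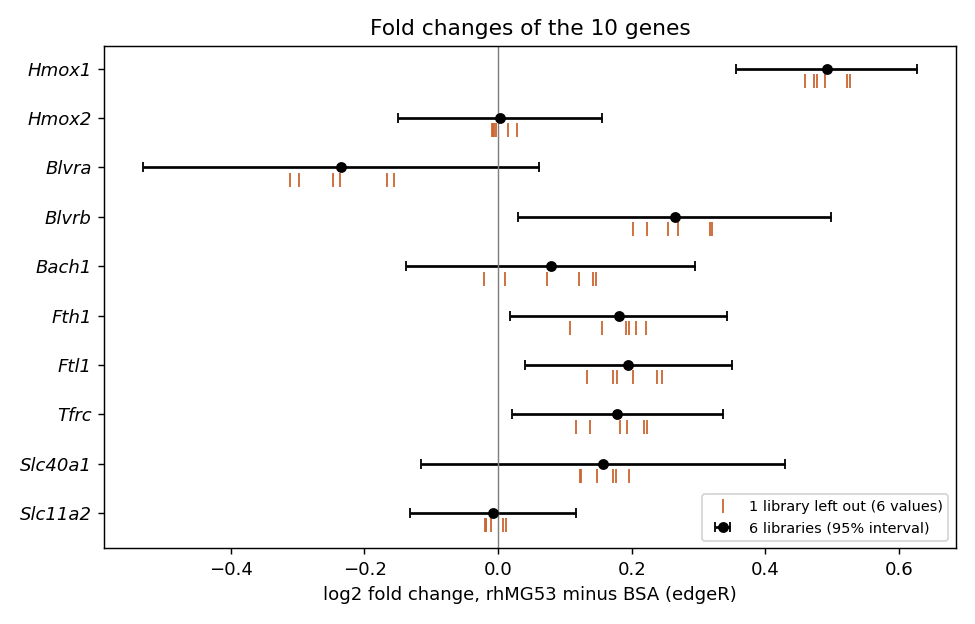
Log2 fold change, rhMG53 minus BSA, of the 10 genes in edgeR, with 95% intervals from all 6 libraries (black) and the 6 values with 1 library left out (orange ticks). Hmox1 lies at 0.49 with all leave-out values from 0.46 to 0.53, whereas those of Hmox2, Bach1 and Slc11a2 fall on both sides of 0.

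Levels spanned nearly 3 orders of magnitude per kb of transcript. Fth1 came first at 1213 CPM per kb (mean of 6 libraries), followed by Ftl1 at 291, Tfrc at 92.9, Hmox1 at 74.6, Slc11a2 at 17.3, Hmox2 at 14.0, Bach1 at 11.3, Blvrb at 10.2, Blvra at 5.60 and Slc40a1 at 1.67. Neighbours in that order did not overlap in the libraries of either group, except Bach1 and Blvrb, which overlapped in both groups. Tfrc and Hmox1 were closer with rhMG53, at 98.6 ± 7.44 and 87.2 ± 3.94 CPM per kb, than with BSA, at 87.1 ± 4.803 and 62.0 ± 2.46 (SD, n = 3 each). By CPM without length, 6 of the 10 genes held the same rank. Summed, the 10 genes made up 0.202 ± 0.00092% of counts in BSA libraries and 0.232 ± 0.014% in rhMG53 libraries. Replicates were closest for Slc11a2 and Hmox2, with coefficients of variation of 1.47% to 3.00%, and widest for Bach1 and Blvra, with 9.44% to 12.6%.

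**Figure D3:**
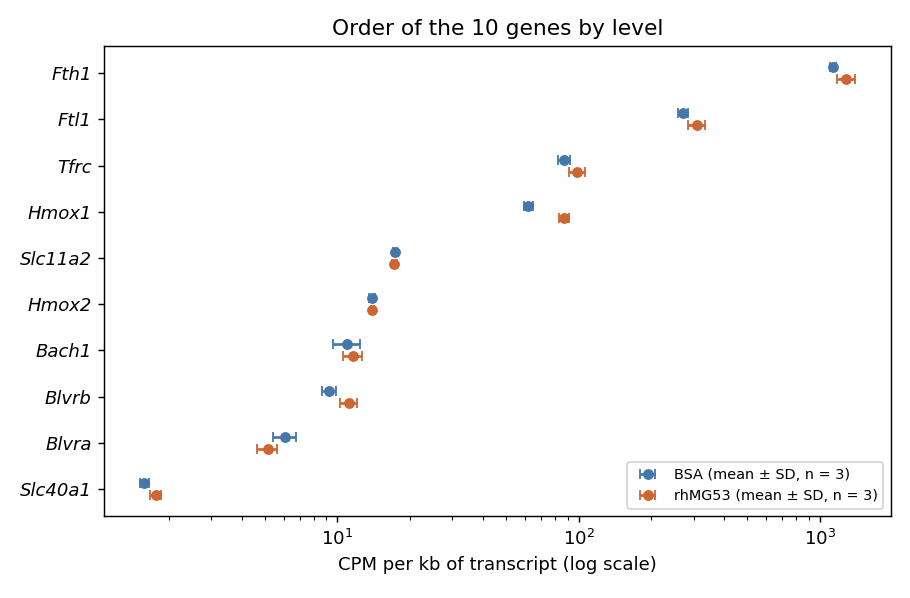
CPM per kb of transcript (log scale) of the 10 genes, ordered by level, with the mean ± SD of 3 libraries for BSA (blue) and rhMG53 (orange). Fth1 lies highest at 1213 and Slc40a1 lowest at 1.67 CPM per kb over all libraries.

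Genes around these in heme and iron metabolism, listed by pathway but with earlier results of these data known, did not pass the test. Of 95 such genes in 7 lists, 94 had a row and 81 were kept. In edgeR 0 of the 81 passed over all genes in either direction, with 0 also in DESeq2 and in limma voom, while 0.0218%, 0.0363% and 0.0218% of all genes were called by these tools. At an unadjusted p under 0.05 there were 6 of 81 (7.41%) in edgeR, 4 in DESeq2 and 6 in limma voom, beside 716 (5.20%), 368 and 711 of all 13769 genes in these tools. All 6 in edgeR were higher, beside 410 of the 716. By sign 48 were higher (59.3%, beside 50.5% of all kept genes) and 33 lower. Every rhMG53 library lay above every BSA library for 12 (14.8%) and below for 2, beside 5.95% and 4.83% of all kept genes. These shares are a description, since the lists were drawn up with earlier results known. The median log2 fold change of the 81 genes was 0.02, beside 0.0014 for all kept genes and 0.17 for the 10 genes chosen on this contrast.

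No heme synthesis gene passed the test. Of 8 genes tested, 3 had positive and 5 negative log2 fold changes. Ferrochelatase (Fech), which inserts iron into the ring, had the highest level per kb at 37.0 CPM per kb, with 238, 258 and 235 CPM with BSA and 246, 227 and 255 CPM with rhMG53. Urod, an enzyme of the middle of the pathway, was at 42.0, 47.9 and 46.4 CPM with BSA and at 41.4, 42.6 and 44.5 CPM with rhMG53, with overlapping groups (log2 fold change -0.08, SE 0.071, adjusted p = 0.979 in edgeR). Left-out libraries moved it from -0.14 (BSA replicate 1) to -0.04 (BSA replicate 2). The erythroid first enzyme Alas2 was too low to test, with at most 4 counts per library.

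Heme transport and binding genes had 8 positive and 6 negative values among 14 tested. Pgrmc1, a heme-binding membrane protein, was at 44.1, 41.4 and 37.7 CPM with BSA and at 49.99, 53.5 and 43.0 CPM with rhMG53. Only rhMG53 replicate 3 reached down into the BSA range, and the gene did not pass (log2 fold change 0.25, SE 0.090, adjusted p = 0.940 in edgeR). Hebp1, which encodes another heme-binding protein, did not overlap between groups and did not pass either (0.23, SE 0.107, adjusted p = 0.950). Tmem14c, which brings a heme precursor into mitochondria, had the highest level per kb, 54.8 CPM per kb, and a log2 fold change of -0.0016.

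Iron sensing genes had a median log2 fold change of 0.02 over 11 tested. Ncoa4, the receptor that delivers ferritin to lysosomes, was at 62.2, 62.0 and 60.7 CPM with BSA and at 60.1, 56.4 and 58.8 CPM with rhMG53. Its rhMG53 libraries all lay below its BSA libraries, as in 4.83% of all kept genes, by an amount that did not pass (-0.08, SE 0.059, adjusted p = 0.976 in edgeR). Bmp6, a ligand that drives hepcidin in the liver, was near 1 to 2 CPM and did not pass (0.74, SE 0.252, adjusted p = 0.935); it shares 224 nt of exon with Txndc5 on the other strand, a gene with 2263 to 3052 counts per library. Hemojuvelin (Hjv), a coreceptor made in skeletal muscle, had the highest level per kb, 168 CPM per kb, and a log2 fold change of -0.0049. Hepcidin itself (Hamp) had no count in any library.

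Iron transport and reductase genes had 8 positive and 6 negative values among 14 tested. Steap3, the ferric reductase of the endosome, was at 21.6, 22.8 and 23.6 CPM with BSA and at 23.9, 26.4 and 25.4 CPM with rhMG53. The groups lay side by side without overlap, and the gene did not pass (0.16, SE 0.075, adjusted p = 0.958 in edgeR). Lcn2, which binds iron-carrying siderophores, was at 1.19 to 1.58 CPM with BSA and at 1.51, 3.32 and 1.85 CPM with rhMG53. Its value in rhMG53 replicate 2 stood alone, and it did not pass (0.68, SE 0.305, adjusted p = 0.950), with 0.27 when that library was left out. The ferroxidase homolog Hephl1 had the highest level per kb of this list, 12.8 CPM per kb, and differed by -0.20 on the log2 scale (SE 0.0998, adjusted p = 0.965).

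The machinery for iron-sulfur clusters had 15 positive and 7 negative values among 22 tested, with a median of 0.05. Isca2, a late-acting assembly factor, was at 17.8, 17.45 and 20.8 CPM with BSA and at 21.5, 22.4 and 21.3 CPM with rhMG53. BSA replicate 3 was close to the rhMG53 libraries, and the gene did not pass (0.22, SE 0.087, adjusted p = 0.946 in edgeR). Ndufab1, the mitochondrial acyl carrier protein, overlapped between groups (0.24, SE 0.105, adjusted p = 0.950), with 0.12 without BSA replicate 1. The mitochondrial chaperone gene Hspa9 had the highest level per kb, 216 CPM per kb, and a log2 fold change of 0.01.

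Among factors that control BACH1 and NRF2, 6 of 10 had positive and 4 negative values. Maff, a small MAF protein that partners both factors, was at 15.8, 15.9 and 15.5 CPM with BSA and at 18.2, 18.8 and 18.5 CPM with rhMG53. Replicates were tight and the groups apart, yet the gene did not pass over all genes (0.23, SE 0.076, adjusted p = 0.935 in edgeR). Nfe2l2, which encodes NRF2, was at 88.7, 82.5 and 90.8 CPM with BSA and at 100.1, 92.6 and 93.9 CPM with rhMG53 (0.13, SE 0.063, adjusted p = 0.965). The related factor gene Nfe2l1 had the highest level per kb, 178 CPM per kb, and a log2 fold change of 0.02. The globin list left only Mb and Cygb to test. Myoglobin (Mb), the heme protein that stores oxygen in muscle, was at 975.3, 1097 and 1216 CPM with BSA and at 1036, 1261 and 1265 CPM with rhMG53, with overlapping groups (0.12, SE 0.099, adjusted p = 0.981). It ranged from 0.04 without BSA replicate 1 to 0.20 without rhMG53 replicate 1. Cytoglobin (Cygb) was at 2.71 to 3.85 CPM with BSA and 2.89 to 4.19 CPM with rhMG53 (0.17, SE 0.202, adjusted p = 0.986), and its difference ranged from 0.0072 without rhMG53 replicate 1 to 0.34 without BSA replicate 3.

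**Figure D4:**
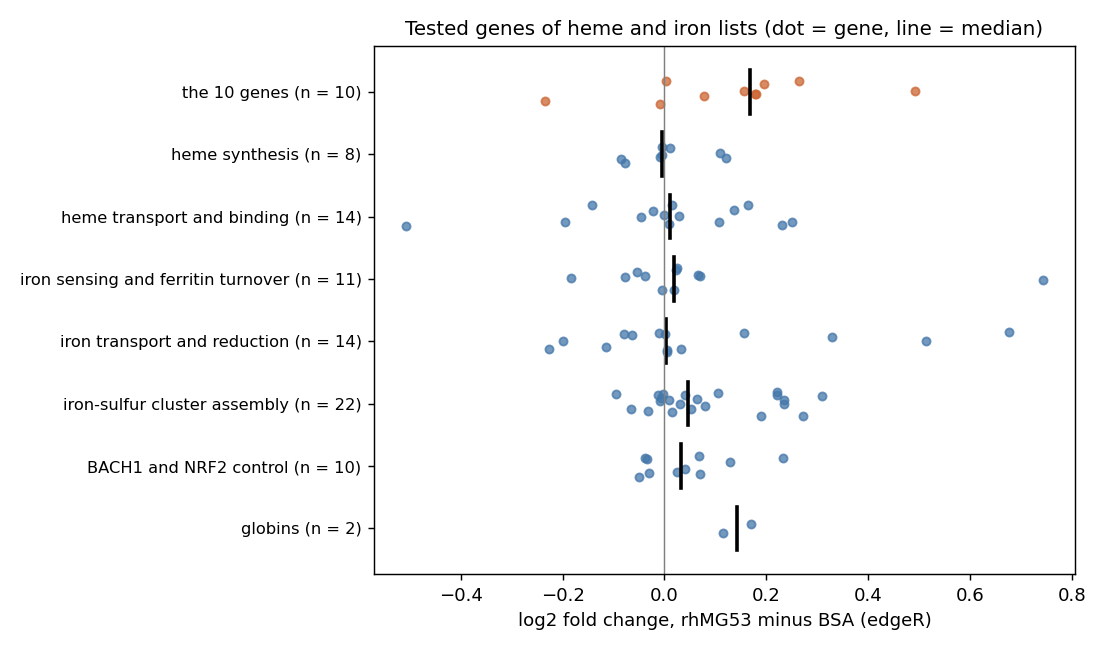
Log2 fold change, rhMG53 minus BSA, of each tested gene (dots) of the 10 genes (orange) and of the 7 pathway lists (blue), with the median as a black line. The medians of the lists with 8 or more genes lie between -0.01 and 0.05, and that of the 10 genes, chosen on this contrast, at 0.17.

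The genes whose pattern over the 6 libraries was most like that of Hmox1, among 10115 named genes with at least 5 CPM, were Cxcl1, St7, Mt2, Maff and Cndp2. Their Pearson r with Hmox1 on log2 CPM was 0.987, 0.984, 0.981, 0.980 and 0.978. All 5, like Hmox1, had every rhMG53 library above every BSA library, and the 6 libraries share that step between groups. Cxcl1, a chemokine gene, was at 13.1 to 15.4 CPM with BSA and at 20.6 to 23.1 CPM with rhMG53, and the metallothionein gene Mt2 at 19.3 to 22.1 and 37.0 to 43.9 CPM. By rank none of the 5 was among the 11 genes that tie for the highest Spearman rho. Of the 10 genes themselves, Ftl1 (r = 0.889), Blvrb (0.801) and Fth1 (0.800) came nearest to Hmox1, and Blvra (-0.68) was farthest. These r values include the step between groups on which the 10 genes were chosen, so they cannot show shared control.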

How the data were processed

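Total RNA was extracted with TRIzol and made into directional poly(A) libraries, per the labels' protocols. The submitters' processing notes name STAR, featureCounts, edgeR (no versions) and mm10; the strand setting and annotation were not given in the sources used here. Values are raw counts per NCBI gene ID as deposited by the authors.

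IDs were matched to symbols through RefSeq (25275) and GENCODE (18), leaving 1886 unnamed. Genes kept by filterByExpr (minimum count 10, total 15; 13769 genes) were scaled with TMM and tested with edgeR 4.0.16 (R 4.3.3), quasi-likelihood, 2-sided, treatment as the only term, with Benjamini-Hochberg adjustment across the kept genes and calls at 0.05; the common biological coefficient of variation was 7.89%. Intervals are 95%. Lengths are those of the longest GENCODE transcript paired with a curated RefSeq record. RefSeq coordinates are 1-based, GRCm38.p6. The fit was also run on simulated counts of independent genes, drawn with the dispersions it estimated. They leave out the length shifts between libraries, so that run does not show how the fit behaves on these data.

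The 10 genes and all lists were chosen with earlier results of these data known. Named beside them were the 2 genes of smallest p and the highest level per kb of each list, and the 5 most like Hmox1. Some items these rules name are not reported here. Alternatives were other scaling factors, filters, DESeq2 1.42.0, limma voom 3.58.1, robust moderation, the replicate number as a term, each library left out and, added after seeing the data, a loess trend with length removed (known for 92.8% of tested genes).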

Additional observations from a re-analysis of the deposited data

How the results depend on the processing

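The log2 fold changes of the 10 genes and of 14 pathway genes were recomputed under up to 16 alternatives, 381 values in all. None of the 160 values of the 10 genes moved by more than the replicate SD of its gene. All alternatives reuse the same counts, and leaving out 1 library can hardly move a value past that SD. That result is therefore no test of stability. None of the values of the 14 pathway genes changed sign or passed. Hmox1 ranged from 0.46 to 0.53. Counts of calls did change: 3 genes passed in all, against 6 without a filter on low counts, 5 in DESeq2, 0 with the replicate number as a block and 0 to 4 when 1 library was left out (0 without BSA replicate 2). The cause was not tested. Deviations of same-numbered libraries correlated at 0.19, -0.13 and -0.15, beside -0.22 to 0.30 for other pairs of a BSA and an rhMG53 library. So few values cannot settle whether the numbers pair samples, and the main fit does not pair them. By rank, 0 of the 5 genes most like Hmox1 stayed, and by CPM 6 of 10 ranks did. Low counts limit Slc40a1 and Blvra most.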

Other observations

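Glrx5, a glutaredoxin of iron-sulfur cluster assembly, was listed with 1 count over all 6 libraries, and the mitochondrial ferritin gene Ftmt with 0. Cd163, the macrophage scavenger receptor for hemoglobin, had the lowest log2 fold change of the 81 pathway genes tested and was picked after its values were seen. It was at 3.53, 3.16 and 2.75 CPM with BSA and at 3.08, 1.96 and 1.56 CPM with rhMG53. The groups overlapped, and the gene did not pass in edgeR (-0.51, SE 0.241, adjusted p = 0.950).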
